A study of Ictidomys tridecemlineatus with 5 samples.

Results

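The genes described here build and supply the photoreceptor cilium, and many of them are mutated in inherited diseases of cilia. A list of 52 Swiss-Prot entry names defined the set. It held subunits of intraflagellar transport (IFT), Bardet-Biedl syndrome (BBS) proteins, proteins of the transition zone and basal body, carriers and small GTPases of lipidated cargo, and ciliary motors. Of the 52 names, 49 were found among the best Swiss-Prot hits of both tissue tables, of 13949 proteins found in both. The tissues were eye (2 libraries) and retina (3 libraries) of ground squirrels, Ictidomys tridecemlineatus, all wild type, with no treatment or age named in the labels, with RNA of 4 animals pooled for a library preparation. Each tissue has 1 deposited value per assembled transcript and none per library, so no difference below has a replicate check or a p-value.

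The outer segment of a rod or cone is a modified primary cilium, joined to the cell body by a narrow connecting cilium that corresponds to the transition zone of other cilia. Opsin and the membrane proteins of the discs are made in the inner segment and must pass this gate. IFT particles are carried outward along the axoneme by kinesin-2 and back by cytoplasmic dynein 2, the BBSome acts as a cargo adaptor, and lipidated proteins are carried by soluble binding proteins that ARL3 unloads. Loss of these components causes photoreceptor degeneration, alone or as part of a syndrome.

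Levels are the RPKM (reads scaled to transcript length and to the reads of the table) of the highest transcript assigned to each protein. The step between deposited values fits a total of 264219334 reads in the eye table and 355988270 reads in the retina table. A difference is the log2 of the eye RPKM plus 1, less the same of the retina RPKM, a scale that understates the difference of low genes. Errors given with a level or a difference are 95% Poisson limits from the reads behind the transcripts, and they cover counting error only. They take each read recovered for a transcript as 1 independent count. This could not be checked, since recovered reads came to 19.2 and 10.5 times the totals in eye and retina.

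Most ciliary genes had a lower level in eye than in retina, by a small amount. Of the 49 compared, 42 were lower in eye (85.7%), where 50.3% of all 13383 proteins compared were lower. The median difference was -0.38 over the ciliary genes and -0.0035 over all proteins. All 49 reached 1 RPKM in at least 1 tissue, which was the filter for a comparison. The median counting error of a difference was ±0.045, and the differences of 40 genes lay below 0 and those of 7 above 0 by more than their counting error. IFT52 and BBS5 did not differ beyond it. The share of all proteins that differed beyond counting error is not given, so these counts cannot be read as particular to the ciliary genes. In tissue of this kind, fewer cells of a type and less RNA per cell cannot be told apart.

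Large differences were few. At least 2-fold lower in eye were 6 of the 49, or 12.2%, against 3.60% of all proteins: TULP3, RPGRIP1, NPHP4, IFT122, IFT172 and IFT140. None was at least 2-fold higher in eye, a mark that 11.8% of all proteins passed. In all 6 the highest retina transcript was less than 0.5 times as long as the highest eye transcript, and 2 further measures therefore stand beside it. The first takes the highest near full-length transcript, one aligned over at least 80% of the longest alignment of that protein in either table. This longest alignment need not span the whole protein. The second takes a like-for-like pair, an eye and a retina transcript with the number of aligned residues within 2% and lengths within 10% of each other. The position of these residues in the protein was not matched. Of the 23 ciliary pairs found, 20 were aligned over at least 80% of the longest alignment, and the lowest share was 13.3%.

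Like-for-like pairs existed for 23 of the ciliary genes. In 20 of these the eye value was lower, or 87.0%, against 52.9% of the 7179 proteins with such a pair. The median difference was -0.25 over the 23 genes and -0.028 over all pairs. RPGRIP1 was the only one of the 23 at least 2-fold lower in eye, a mark passed by 1.02% of all pairs, and none was 2-fold higher, where 6.60% of all pairs were. The direction matched that of the highest transcript in 22 of 23 genes, with ARL6 as the exception.

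**Figure D1:**
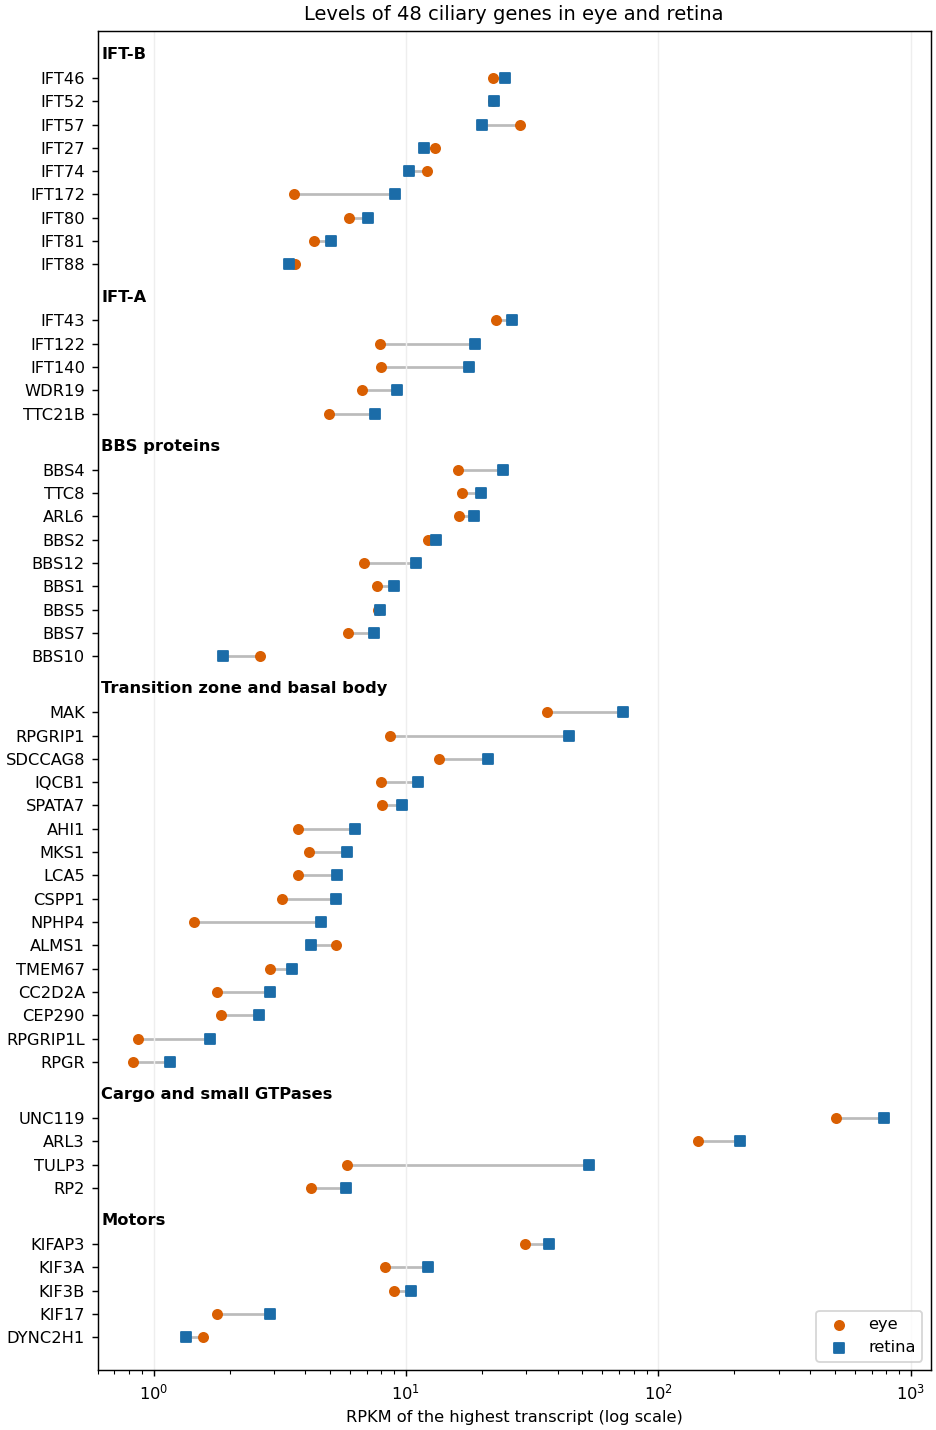
RPKM of the highest transcript of 48 ciliary genes in eye (circles) and retina (squares), on a log axis, 1 value per tissue and grouped by role. UNC119 and ARL3 stand far to the right of the other genes, and for 41 genes the eye value lies left of the retina value.

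The genes ranged widely in abundance, with UNC119, ARL3 and MAK at the top in both tissues. The median ciliary gene of the 49 stood at 6.85 RPKM in eye and 9.22 RPKM in retina, and 34 genes in eye and 26 in retina lay under 10 RPKM. UNC119 (entry U119A) was first, at 506 RPKM in eye and 784 RPKM in retina, which is 73.9 and 85.0 times those medians. ARL3 came second with 144 RPKM in eye and 210 RPKM in retina, followed by MAK with 36.1 RPKM in eye and 72.3 RPKM in retina. At the low end RPGR stood at 0.831 RPKM in eye and 1.16 RPKM in retina. RPGRIP1L (entry FTM) stood at 0.871 RPKM in eye and 1.68 RPKM in retina. Across the 49 genes the levels in both tissues had a Spearman correlation of 0.92, given as a description, since the points share their libraries and genes are not replicates.

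IFT complex B, which carries cargo outward, had the median difference nearest to 0 of the role groups, at -0.01. Of the 9 members compared, 5 had lower and 4 had higher levels in eye, but with both tables scaled to an equal total, which moves the median of all proteins to -0.24, only IFT57 of these 4 stayed higher in eye. IFT57 had the largest difference in the other direction, with 28.4 RPKM in eye and 20.1 RPKM in retina, a difference of 0.48 ± 0.02. The transcripts were aligned over 423 residues in each table, but were 2966 bases long in eye and 4840 bases long in retina. IFT27, a Rab-like GTPase of the complex, had 13.1 RPKM in eye and 11.8 RPKM in retina. IFT74, which forms a tubulin-binding module with IFT81, had 12.1 RPKM in eye and 10.2 RPKM in retina. Its transcripts were aligned over 600 residues in eye and 356 in retina. IFT81 itself had 4.34 RPKM in eye and 5.05 RPKM in retina. IFT88, the subunit whose loss in mice causes polycystic kidneys and retinal degeneration, had 3.64 RPKM in eye and 3.43 RPKM in retina. Like-for-like pairs existed for 4 members of the complex. Of these, 3 were lower in eye and 1, IFT27, was higher, at a median difference of -0.18.

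IFT52 and IFT46 were among the most abundant subunits in both tissues and differed little. IFT52 had 22.2 RPKM in eye and 22.4 RPKM in retina, and IFT46 had 22.2 RPKM in eye and 24.7 RPKM in retina, a difference of -0.14 ± 0.04. The sign of IFT46 turned to 0.06 with the longest transcript of each table. IFT80 had 5.96 RPKM in eye and 7.07 RPKM in retina from transcripts of 3890 and 3894 bases. IFT172 (entry IF172), which in the alga Chlamydomonas acts at the ciliary tip, was the exception: its highest transcripts gave 3.61 RPKM in eye and 9.04 RPKM in retina, a difference of -1.12 ± 0.07. The retina value came from a fragment of 567 bases, and near full-length transcripts of 5469 and 5691 bases gave 3.61 RPKM in eye and 5.75 RPKM in retina, a difference of -0.55. IFT20, the subunit that also sits at the Golgi, was found in the retina table alone, on 3 transcripts of up to 20.7 RPKM. The lack of this hit name in eye does not show that IFT20 RNA was absent there. No IFT22 name was found, but its older entry name RABL5, looked up after the tables were seen, stood at 11.5 RPKM in eye and 14.2 RPKM in retina.

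All 5 listed subunits of IFT complex A, which serves the return transport and the entry of membrane receptors, had lower levels in eye. Their median difference was -0.53. IFT43 was the most abundant, with 22.7 RPKM in eye and 26.4 RPKM in retina on transcripts of 858 and 859 bases, a difference of -0.21 ± 0.05. IFT122 (entry IF122) had 7.87 RPKM in eye and 18.8 RPKM in retina by the highest transcript. Its like-for-like pair, of 3983 and 3952 bases, gave 7.87 RPKM in eye and 13.5 RPKM in retina, or 1.72-fold more in retina. IFT140 (entry IF140), a gene of retinal dystrophy and skeletal ciliopathy, had 7.93 RPKM in eye and 17.7 RPKM in retina, and 7.93 and 11.2 RPKM in eye and retina with near full-length transcripts. TTC21B (entry TT21B) had a single transcript per table, with 4.94 RPKM in eye and 7.55 RPKM in retina, and WDR19 had 6.72 RPKM in eye and 9.22 RPKM in retina. Each of these 5 listed subunits was thus lower in eye by the highest, the longest, the best-matching and the near full-length transcripts. The difference between complexes A and B was not tested.

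**Figure D2:**
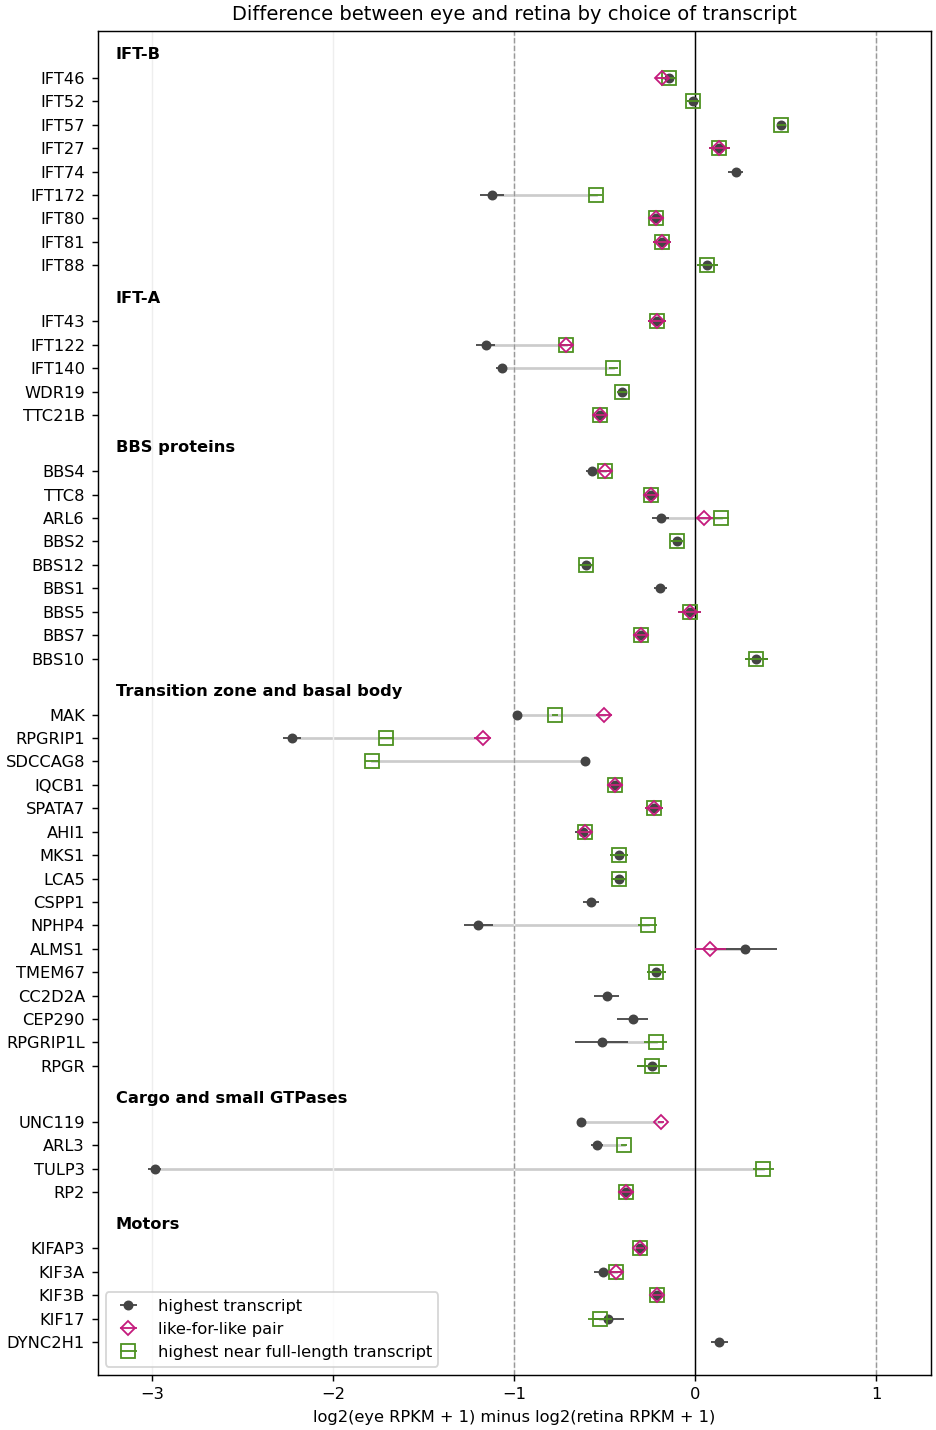
Difference log2(eye RPKM + 1) minus log2(retina RPKM + 1) of 48 ciliary genes from the highest transcript (filled circles), the highest near full-length transcript (squares) and a like-for-like pair of transcripts (diamonds), with 95% counting limits as bars and dashed lines at 2-fold. Of the 6 genes left of the lower dashed line by the highest transcript, RPGRIP1 alone stays there by every measure shown for it, and TULP3 moves across 0.

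The BBS proteins differed little, with 8 of 9 lower in eye at a median difference of -0.19. BBS4, a BBSome subunit that binds the centriolar satellite protein PCM1, had the second largest difference of the group, with 16.1 RPKM in eye and 24.4 RPKM in retina, and its like-for-like pair gave -0.50 ± 0.03. TTC8, also known as BBS8, had 16.6 RPKM in eye and 19.9 RPKM in retina on transcripts of 2166 and 2141 bases. ARL6, the GTPase that recruits the BBSome to membranes, had 16.3 RPKM in eye and 18.7 RPKM in retina, a difference of -0.19. Its like-for-like pair gave 15.2 RPKM in eye and 14.6 RPKM in retina, a difference of 0.0497 ± 0.0461, so that ARL6 was there slightly higher in eye, by just more than its counting error.

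The other BBSome subunits were of similar or lower level. BBS2 had 12.2 RPKM in eye and 13.2 RPKM in retina, and BBS5, with the same 341 aligned residues in both tables, had 7.72 RPKM in eye and 7.91 RPKM in retina, a difference of -0.03 ± 0.06. BBS7 had 5.88 RPKM in eye and 7.47 RPKM in retina, and its difference of -0.30 turned to 0.71 with the longest transcripts, of which that in retina was aligned over only 158 residues. BBS1 had 7.71 RPKM in eye and 8.95 RPKM in retina, with a difference of 0.53 by the best-matching transcripts. The chaperonin-like proteins that help the BBSome assemble differed in direction: BBS12 had 6.85 RPKM in eye and 10.9 RPKM in retina, and BBS10 had 2.65 RPKM in eye (2.53 to 2.77) and 1.89 RPKM in retina (1.81 to 1.97). No BBS9 name was found, but PTHB1, the entry name under which this BBSome subunit stood in the tables, had 3.85 RPKM in eye and 4.62 RPKM in retina. This name was also looked up after the tables were seen. With RABL5 and PTHB1 added, the median over 51 genes was -0.35.

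The transition zone and basal body formed the largest group, and the level in eye was below that in retina for 15 of its 16 members, at a median difference of -0.47. RPGRIP1 (entry RPGR1), which anchors the retinitis pigmentosa GTPase regulator at the connecting cilium, held the largest difference of the group. Its 4 eye transcripts lay between 2.32 and 8.66 RPKM and its 12 retina transcripts between 8.90 and 44.3 RPKM, so that the lowest in retina was above the highest in eye. The highest transcripts differed by -2.23 ± 0.05, but the one in retina was 436 bases long and aligned over only 50 residues. Near full-length transcripts, aligned over 601 residues in eye and 699 in retina, had 8.66 RPKM in eye and 30.5 RPKM in retina, a difference of -1.70. The like-for-like pair, of 1853 and 1794 bases and 601 aligned residues each, had 8.66 RPKM in eye and 20.8 RPKM in retina, a difference of -1.17 ± 0.05.

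MAK, a kinase that limits the length of the photoreceptor axoneme, had 36.1 RPKM in eye (35.7 to 36.5) and 72.3 RPKM in retina (71.6 to 73.0), a difference of -0.98 ± 0.02. Transcripts of 3725 and 3254 bases that each covered 648 residues of the protein had 36.1 RPKM in eye and 62.4 RPKM in retina, a difference of -0.77. Its like-for-like pair, of 931 and 924 bases and 206 aligned residues each, had 21.5 RPKM in eye and 30.9 RPKM in retina. That pair differed by -0.50 ± 0.05. The longest retina transcript, of 4127 bases, was aligned over 91 residues and stood at 18.6 RPKM, so that the longest transcripts differed by 0.92. SDCCAG8 (entry SDCG8), a centrosomal protein, had 13.5 RPKM in eye and 21.1 RPKM in retina on transcripts aligned over 467 residues each, a difference of -0.61 ± 0.02. Its near full-length transcripts had 5.10 RPKM in eye and 20.0 RPKM in retina, which is the largest difference by that measure, -1.79. In eye the longer alignment was thus the less abundant one, while in retina both stood near 20 RPKM.

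Proteins that act with RPGRIP1 at the connecting cilium showed smaller differences. SPATA7 (entry SPAT7) had 8.06 RPKM in eye and 9.61 RPKM in retina from 1 transcript per table, a difference of -0.23 ± 0.05. IQCB1, which binds CEP290, had 7.97 RPKM in eye and 11.2 RPKM in retina on transcripts of 2334 and 2341 bases, a difference of -0.44. LCA5, or lebercilin, had 3.74 RPKM in eye and 5.35 RPKM in retina. RPGR itself differed by -0.24 ± 0.08 at the low levels given above. CEP290 (entry CE290), whose protein bridges microtubules and membrane in the transition zone, had 1.85 RPKM in eye and 2.62 RPKM in retina, with no near full-length transcript in the eye table. NPHP4 had 1.45 RPKM in eye and 4.63 RPKM in retina, but near full-length transcripts of 3928 and 4868 bases had 1.45 RPKM in eye and 1.94 RPKM in retina, a difference of -0.26.

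Genes of Joubert and Meckel syndromes, many of them in the membrane gate of the transition zone, were of low level in both tissues. AHI1 differed by -0.61 ± 0.04 in a like-for-like pair of 4379 and 4383 bases, with 3.75 RPKM in eye and 6.25 RPKM in retina. MKS1 had 4.12 RPKM in eye and 5.84 RPKM in retina, and TMEM67 (entry MKS3) had 2.91 RPKM in eye and 3.54 RPKM in retina. CSPP1, a microtubule-binding protein, had 3.23 RPKM in eye and 5.30 RPKM in retina. CC2D2A (entry C2D2A) had 1.78 RPKM in eye and 2.90 RPKM in retina, but the sign turned to 0.11 with the longest or the best-matching transcripts. ALMS1, the basal body protein of Alström syndrome, was the single member of the group higher in eye, with 5.30 RPKM in eye and 4.20 RPKM in retina. That eye value rested on 238 reads over 170 bases, among transcripts of 200 bases or more ALMS1 differed by -0.18, and its like-for-like pair differed by 0.08 ± 0.09.

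The carriers of lipidated cargo held both the most abundant genes and the least settled values. UNC119, which extracts the acylated transducin alpha subunit from membranes, differed by -0.63 ± 0.02 by its highest transcripts, of 536 and 207 bases. It was split over 47 eye and 95 retina transcripts, of which 41 and 87 were under 200 bases. A like-for-like pair of 454 and 480 bases had 378 RPKM in eye and 431 RPKM in retina, a difference of -0.19 ± 0.02, and among transcripts of 500 bases or more the difference was 0.17, with 506 RPKM in eye and 451 RPKM in retina. The longest transcripts, aligned over only 43 residues in eye and 36 in retina, had 425 RPKM in eye and 40.2 RPKM in retina. No retina transcript was near full-length. UNC119 was thus abundant in both tissues by its highest transcripts and by the pair, while its direction depended on the transcripts compared.

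ARL3, the GTPase that releases cargo from UNC119 in the cilium, had 144 RPKM in eye (143 to 145) and 210 RPKM in retina (206 to 215). The retina value came from a fragment aligned over 39 residues, and 11 of the 16 retina transcripts were under 200 bases, against 0 of 5 in eye. Near full-length transcripts of 1074 and 1103 bases had 144 RPKM in eye and 189 RPKM in retina, a difference of -0.39 ± 0.02. The size depended on the transcripts compared: the best-matching ones had 106 RPKM in eye and 189 RPKM in retina, a difference of -0.82, and the longest ones, of which that in eye was aligned over only 41 residues, had 29.8 RPKM in eye and 171 RPKM in retina, a difference of -2.48. RP2 (entry XRP2), which stimulates the GTP hydrolysis of ARL3, was far less abundant, with 4.22 RPKM in eye and 5.81 RPKM in retina, a difference of -0.38 ± 0.05.

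TULP3, an adaptor that links IFT complex A to receptors entering the cilium, showed how far 1 transcript could move a value. By the highest transcripts it had 5.84 RPKM in eye and 53.2 RPKM in retina, the largest difference of the 49 genes at -2.98 ± 0.04. The retina transcript, of 1155 bases, was aligned over 173 residues. The eye transcript, aligned over 456 residues, stood at 5.84 RPKM and the retina transcript aligned over 464 residues at 4.27 RPKM, a difference of 0.38 ± 0.06 in the opposite direction.

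**Figure D3:**
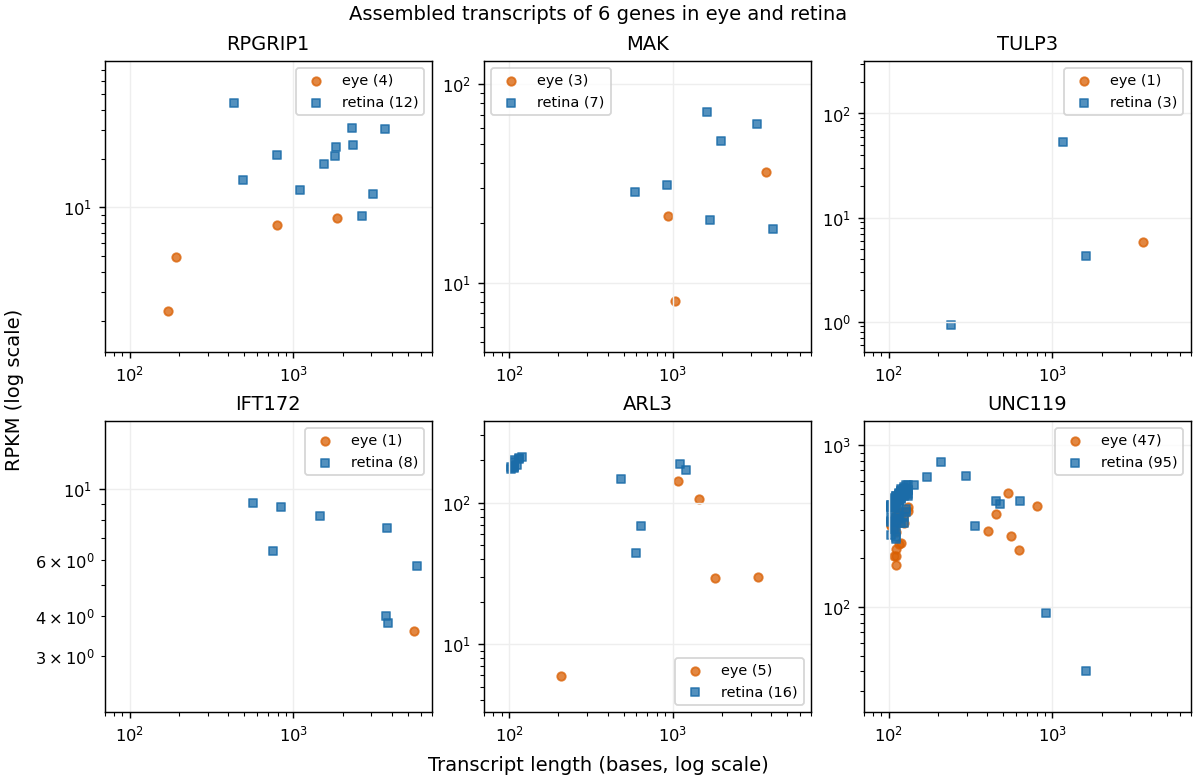
RPKM against length of every transcript assigned to 6 ciliary genes, in eye (circles) and retina (squares), both axes on a log scale, with the number of transcripts in each legend. The 12 retina transcripts of RPGRIP1 lie above its 4 eye transcripts, the TULP3 value of 53.2 RPKM rests on 1 retina transcript, and most UNC119 transcripts are short.

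Of the 5 motor subunits 4 were lower in eye, at a median difference of -0.31. The heterotrimeric kinesin-2, which moves IFT particles outward, was represented by KIF3A with 8.29 RPKM in eye and 12.2 RPKM in retina, KIF3B with 8.94 RPKM in eye and 10.5 RPKM in retina, and the accessory subunit KIFAP3 (entry KIFA3) with 29.5 RPKM in eye and 36.8 RPKM in retina. Their like-for-like pairs covered 702, 748 and 815 residues and differed by -0.43 ± 0.03 for KIF3A, -0.21 ± 0.03 for KIF3B and -0.31 ± 0.02 for KIFAP3. KIFAP3 was 3.56 times KIF3A in eye and 3.01 times KIF3A in retina on the per-length scale. KIF17, a homodimeric kinesin-2, had 1.79 RPKM in eye and 2.89 RPKM in retina. DYNC2H1 (entry DYHC2), the heavy chain of dynein 2, had 1.57 RPKM in eye and 1.34 RPKM in retina, a difference of 0.13 ± 0.05. It was the only motor subunit higher in eye, and turned to -0.03 with an equal total.

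Other ciliary genes outside the set were mostly lower in eye too. Of 55 further entry names, several of them alternative names of one protein, 47 were in both tables, and 35 of these had lower levels in eye (74.5%), at a median difference of -0.24. By like-for-like pairs their median was also -0.24, close to the -0.25 of the set, and no difference between the lists was tested. By the highest transcript none was at least 2-fold lower and 1 at least 2-fold higher, and by like-for-like pairs 1 of 31 was 2-fold lower and 1 higher. The largest differences below 0 belonged to TM138 (TMEM138), with 9.50 RPKM in eye and 18.7 RPKM in retina, CE164 (CEP164), with 4.37 and 8.07 RPKM in eye and retina, and TT30B (TTC30B), with 2.23 and 4.35 RPKM in eye and retina. The largest above 0 belonged to HSB11, a partner of IFT27 also called IFT25, with 14.7 RPKM in eye and 6.62 RPKM in retina, a difference of 1.04, followed by B9D1 at 0.39 and TM107 (TMEM107) at 0.34. HSB11 and its partner IFT27 were thus both higher in eye, though IFT27 was lower with an equal total.

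Photoreceptor markers were lower in eye by more than most ciliary genes. Of 18 listed marker names 16 were in both tables. By the highest transcript all 16 stood lower in eye, at differences of -1.37 to -0.14 around a median of -0.69. Their levels summed to 3410 RPKM in eye and 6562 RPKM in retina. Of these sums ARRC held 1177 and 2294 RPKM in eye and retina, and RECO 973 and 2103 RPKM, on transcripts of 139 to 356 bases. Over the 14 markers with near full-length transcripts the sums were 971 RPKM in eye and 1728 RPKM in retina. With longest transcripts 14 of 16 markers were lower in eye. By like-for-like pairs the median of 9 markers was -0.70, against -0.25 for the 23 ciliary genes. By the highest transcript and by pairs RPGRIP1 lay below the lowest marker, which stood at -1.04 among pairs. By near full-length transcripts RPGRIP1 at -1.70 was within the markers' range, which reached -1.86. What part the photoreceptor content of each tissue had in the ciliary differences was not tested. Markers of other ocular tissues moved the opposite way: all 6 fibroblast names had higher levels in eye, at a median difference of 3.99 and with sums of 546 RPKM in eye and 15.4 RPKM in retina. The 6 lens names compared had a median difference of 7.54 and the 4 cornea names one of 8.95, each gene at least 2-fold higher in eye. For pigment epithelium 4 of 5 names stood higher in eye, at a median of 0.91, which was 0.10 over the 3 with near full-length transcripts. The sums of the pigment epithelium names were 1034 RPKM in eye and 580 RPKM in retina. RGR had 412 and 218 RPKM in eye and retina, RLBP1 347 and 323 RPKM, and RPE65 238 and 17.5 RPKM. With best-matching transcripts the sums were 397 RPKM in eye and 491 RPKM in retina, and the median difference was 0.0054, with 3 of 5 names higher in eye. The lens names summed to 7736 RPKM in eye and 29.4 RPKM in retina. What these tissues contributed to the ciliary values was not tested. The 2 skeletal muscle names compared differed in direction. TNNI2 had 220 RPKM in eye and 1.01 RPKM in retina, and ACTN3 had 26.5 RPKM in eye and 67.7 RPKM in retina. TNNT3 was found in eye alone, at 151 RPKM. Of 13 names of motile cilia, 10 were found in either table and 3 could be compared. Of these, RSPH9 stood at 9.97 RPKM in eye and 12.9 RPKM in retina, RSH4A at 0.855 RPKM in eye and 1.64 RPKM in retina, and RSPH1 at 5.43 RPKM in eye and 4.94 RPKM in retina, all 3 of them radial spoke proteins. The axonemal dynein DYH5 stood at 0.26 RPKM in eye and 0.24 RPKM in retina, and DNAI1, ODAD1 and the regulator FOXJ1 were not found under these names. Other entry names were not looked up for the markers, so a missing name does not show that the RNA was absent.

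**Figure D4:**
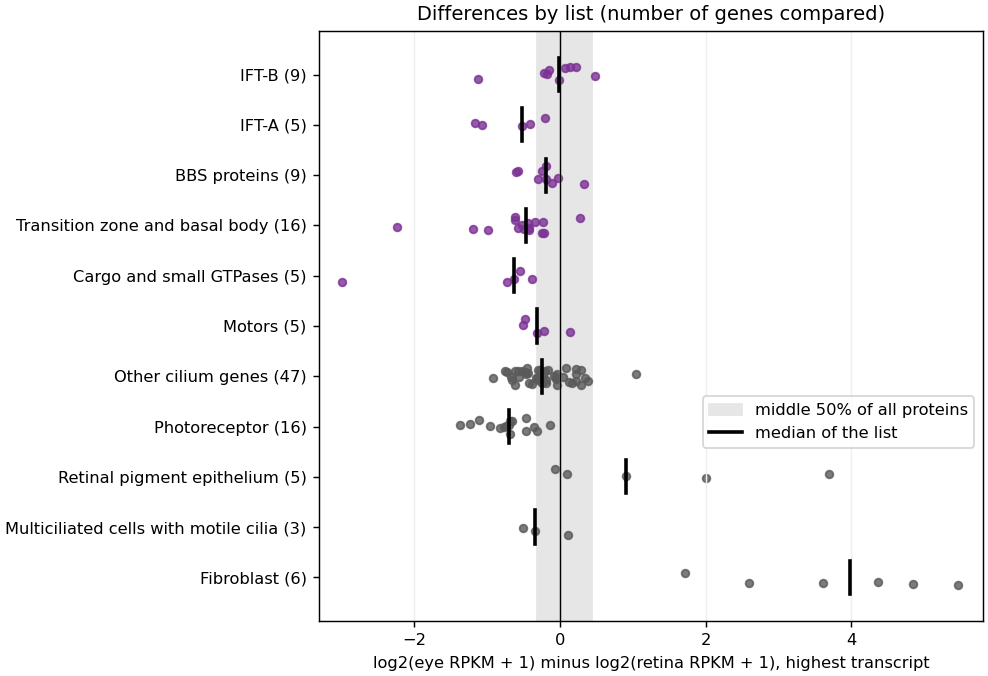
Difference log2(eye RPKM + 1) minus log2(retina RPKM + 1) of the highest transcript, 1 point per gene, for the 6 role groups of ciliary genes (purple) and for other lists (grey), with the number of genes in brackets, the list median as a black bar and the middle 50% of all proteins shaded. The medians run from -0.01 for IFT-B to -0.63 for cargo carriers, photoreceptor markers lie at -0.69 and fibroblast genes far to the right.

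The 2 tables did not hold the same transcripts. The retina table held more transcripts than the eye table for 33 of the 49 genes, an equal number for 9 and fewer for 7. The highest transcripts of both tables were within 10% of each other in length for 18 genes, of which 15 had lower levels in eye, at differences of -0.57 to 0.22 and a median of -0.22. For the 6 genes with a single transcript in each table, 5 were lower in eye and the median was also -0.22. Over all proteins, transcripts with a hit numbered 61797 in eye and 62889 in retina. The counts of this paragraph are not given over all proteins, so they cannot be read as particular to the ciliary genes. The 3 eye transcripts of PTHB1 aligned over the whole protein held between 3448 and 3451 reads each, and reads over all transcripts exceeded the totals, so sums over transcripts are not used as levels.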

How the data were processed

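RNA of whole eye and retina was sequenced in 2 and 3 libraries. Per the file headers, the authors deposited 1 expression value, length and best hit per transcript and tissue. The unit was read as RPKM from the values: the deposited RPKM value times length was a whole multiple of 1 constant per table within 0.01 reads for 100% of transcripts, which gives the totals. The second kind of table holds the deposited score, the percent similarity (positive positions) and the E-value of each Swiss-Prot hit, per the file headers. The submitters' processing notes name Bowtie without a version. No source used here gives the assembler, the mode of counting or the merging of libraries. Reads recovered from the values came to 19.2 and 10.5 times the totals in eye and retina.

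Hits were joined by the entry name before the species code. A protein's level is its highest transcript, compared at 1 RPKM or more in either tissue with a pseudocount of 1; the mark was 2-fold. With 1 value per tissue no test was run. Levels in both tissues are given for genes among the 3 highest of a role group, at 2-fold, with the largest difference of a group, or with a direction that differed between the highest, longest and best-matching transcripts; most other genes are given too, and 1 gene that enters the counts and medians is not reported here by itself. The members, lists and measures were chosen with earlier results of these data known, and near full-length transcripts and like-for-like pairs after seeing these values. For pairs, names with over 200 transcripts in a table were left out. Of the 52 gene symbols, 51 matched RefSeq's gene table (assembly mIctTri1.hap1), used for names only. No sequences are printed, since none were used here. The functions were tested on simulated data, with Python 3.11.15, pandas 2.3.3 and numpy 2.4.6.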

Additional observations from a re-analysis of the deposited data

How the results depend on the processing

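Whole-list direction held under all 17 alternatives run (14 planned, 3 added after seeing the data): the median difference over the ciliary genes stayed below 0, against -0.38 as reported. It was -0.85 with sums over transcripts, -0.25 with best-matching transcripts, -0.22 with longest transcripts, -0.23 with length-weighted means, -0.60 with an equal total, -0.45 with a pseudocount of 0.1, -0.22 with a pseudocount of 5, -0.44 with a filter at 10 RPKM, -0.30 with near full-length transcripts and -0.25 with like-for-like pairs. The median of all proteins, -0.0035 as reported, was -0.24 with an equal total, -0.073 with sums, 0.043 with longest transcripts and 0.051 with length-weighted means. The genes higher in eye, 7 of 49 as reported, were 11 of 48 with best-matching and 14 of 49 with longest transcripts, 3 of 49 with an equal total, 3 of 23 with the filter at 10 RPKM and 3 of 23 with pairs. Of all proteins, 6656 of 13383 were higher in eye as reported and 6769 of 13261 with best-matching transcripts. With longest transcripts 7096 of 13320 were higher, and with pairs 3383 of 7179. The counts of all proteins with an equal total and with the filter are not given here. At least 2-fold higher in eye were 2 with sums and 2 with longest transcripts (4.08%, against 13.5% of all proteins), where 0 were as reported. The share of all proteins 2-fold higher with sums is not given here, so that count stands without a background. At least 2-fold lower in eye, 6 as reported, were 20 with sums, 3 with length-weighted means, 1 with pairs, and 2 each with best-matching, longest and near full-length transcripts and with a pseudocount of 5. The share of all proteins at that mark, 3.60%, was 19.3% with sums, 2.05% with length-weighted means, 6.55% with an equal total, 1.98% with a pseudocount of 5, 3.12% with best-matching, 2.88% with longest and 2.26% with near full-length transcripts, and 1.02% with pairs.

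The other cilium genes, at -0.24 as reported, had a median of -0.45 with sums, -0.17 with longest transcripts, -0.46 with an equal total, -0.29 and -0.14 with pseudocounts of 0.1 and 5, and -0.44 with the filter at 10 RPKM. TULP3 turned to 0.38 with best-matching, longest and near full-length transcripts. Of the 28 genes chosen by rule, 17 kept their sign under every alternative that gave a value, and 422 of 449 single values kept the reported sign. UNC119 differed by 3.37 with longest transcripts. The cause of these moves was not tested.

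No paired analysis was possible because the tables carry no column per library, and for the same reason leaving out single replicates was not run.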
